A study of Mus musculus with 24 samples.

Results

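The blood and immune cell genes were 36 genes of leukocytes and their precursors: surface receptors and adhesion molecules, antigen receptor and costimulatory genes, SLAM and Fc receptors, cytokine and chemokine signalling genes, and transcription factors and recombinases of blood cell development. They were followed by reduced representation bisulfite sequencing (RRBS) in brown adipose tissue (BAT) of female C57BL/6J mice at PND 12. Litters came from dams gavaged from mid-gestation into the first postnatal days with both isomers o,p'-DDT and p,p'-DDT together (DDT) or with olive oil (VEH). Each of the 24 libraries, 12 DDT and 12 VEH, was a pool of female pups of 1 litter, so that litters were the replicates. RRBS cuts DNA with MspI at CCGG and counts, at the CpGs of a fragment that reads cover, the reads that kept the cytosine (methylated) and those that lost it. Reads were 50 bp long, so CpGs in the interior of longer fragments may not have been read. Members were the rows of the deposited table that carried one of the 36 gene names in the authors' annotation. These were 626 of 65535 fragments and named 34 of the genes, with no row for Fcer1g or Spi1. The table covered chromosomes 1 and 2 and chromosome 3 up to position 136670346, and the rest of the genome was not analysed here.

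Most of these genes are used by leukocytes and are silent in adipocytes, although B2m, Traf6, Cd82, Il15ra and Cd44 are also expressed in many other cells. Methylation of CpGs near the start of a gene usually goes with silence of genes that have a CpG-rich start, whereas CpG-poor starts and gene bodies are methylated in most tissues whether or not the gene is used. Brown fat holds resident macrophages and other blood cells among its adipocytes and stromal cells. RNA was not measured in these samples, so neither the blood cell content nor the silence of the genes could be checked against marker levels. In bulk tissue a level between 0% and 100% cannot be divided into the share of cells that carry the mark and the level within each cell.

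The fragments on which the results turn are given 5′ to 3′ on the plus strand of GRCm38, with each CpG in capitals. The first 5 lie within 1000 bp of the start of the gene and show unmethylated and methylated starts. The next 2 contrast a methylated and an unmethylated stretch inside Cd247, and the last 4 had the smallest p in the DDT and VEH comparison.
Ikzf2, chr1:69687615-69687691: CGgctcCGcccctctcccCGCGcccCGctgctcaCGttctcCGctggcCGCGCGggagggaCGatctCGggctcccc
Cxcr4, chr1:128592342-128592471: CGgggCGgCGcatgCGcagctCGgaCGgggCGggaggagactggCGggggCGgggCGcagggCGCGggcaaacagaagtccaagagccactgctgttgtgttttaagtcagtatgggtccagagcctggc
Cd2, chr3:101287799-101287830: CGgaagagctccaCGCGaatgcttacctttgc
Rag1, chr2:101648751-101648830: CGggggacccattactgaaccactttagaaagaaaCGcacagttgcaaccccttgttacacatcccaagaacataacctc
Rag1, chr2:101648831-101649026: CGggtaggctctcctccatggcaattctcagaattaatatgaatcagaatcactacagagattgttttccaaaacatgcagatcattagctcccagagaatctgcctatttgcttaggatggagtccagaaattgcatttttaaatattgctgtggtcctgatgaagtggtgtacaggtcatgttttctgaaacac
Cd247, chr1:165801826-165801880: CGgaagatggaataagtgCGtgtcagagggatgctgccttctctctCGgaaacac
Cd247, chr1:165845056-165845131: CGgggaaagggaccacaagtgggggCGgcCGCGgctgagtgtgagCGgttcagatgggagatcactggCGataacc
Cxcr4, chr1:129090844-129090930: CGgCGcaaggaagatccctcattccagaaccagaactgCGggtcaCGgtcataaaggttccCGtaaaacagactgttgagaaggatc
Cd82, chr2:93489105-93489172: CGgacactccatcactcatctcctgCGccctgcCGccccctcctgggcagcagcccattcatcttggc
Cxcr4, chr1:129121020-129121067: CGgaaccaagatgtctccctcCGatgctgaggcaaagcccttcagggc
Ptprc, chr1:138120041-138120103: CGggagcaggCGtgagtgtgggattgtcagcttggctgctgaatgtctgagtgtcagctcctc
The Ikzf2 fragment packs 12 CpGs into 77 bp, whereas the longer Rag1 fragment holds 1 CpG in 196 bp.

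Levels are the methylated calls of a fragment as a percentage of all its calls in that library, with a minimum of 10 calls. Testing required such levels from 8 or more litters per group. This left 103 fragments of 23 members among 20225 tested fragments. Total calls ranged from 8371958 to 13768991 in VEH and from 9895508 to 14124652 in DDT. The libraries DDT 3, DDT 4 and DDT 12 stood apart in coverage or level. DDT 4 had a level for 45 fragments, DDT 3 for 74 and DDT 12 for 92, against 90 to 103 in VEH. Across 32 fragments measured in every library, DDT 4 had a mean level of 34.7% and DDT 12 of 38.2%, and the VEH libraries lay between 39.7% and 42.5%. DDT 4 was the single lowest library at 22 of its 45 fragments (48.9%) and DDT 12 at 25 of its 92 (27.2%), against 52.4% and 15.5% of all tested fragments. Where a difference below moved with these libraries, its value without them is also given.

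Of the 103 fragments, 44 lay inside the gene they were named for or near its start. Taking gene starts from GENCODE M21, 19 fragments of 7 members lay within 1000 bp of the start, 25 fragments of 13 members lay in the gene body beyond that distance, and 59 lay upstream, 40 of them by more than 50000 bp. Another protein-coding gene began within 1000 bp of 11 of these 59: 5 fragments named Cxcr4 at Thsd7b, 3 named Ikzf2 at Spag16 and 3 named B2m at Spg11. At 27 of the 59, these 11 included, the nearest protein-coding start was that of another gene, so the name need not point to the closest gene. No tested fragment was found for 11 members with rows in the table, namely Cd48, Slamf1, Slamf6, Fcgr2b, Selp, Ctla4, Cd28, Icos, Cxcr2, Cd44 and Il1a.

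**Figure D1:**
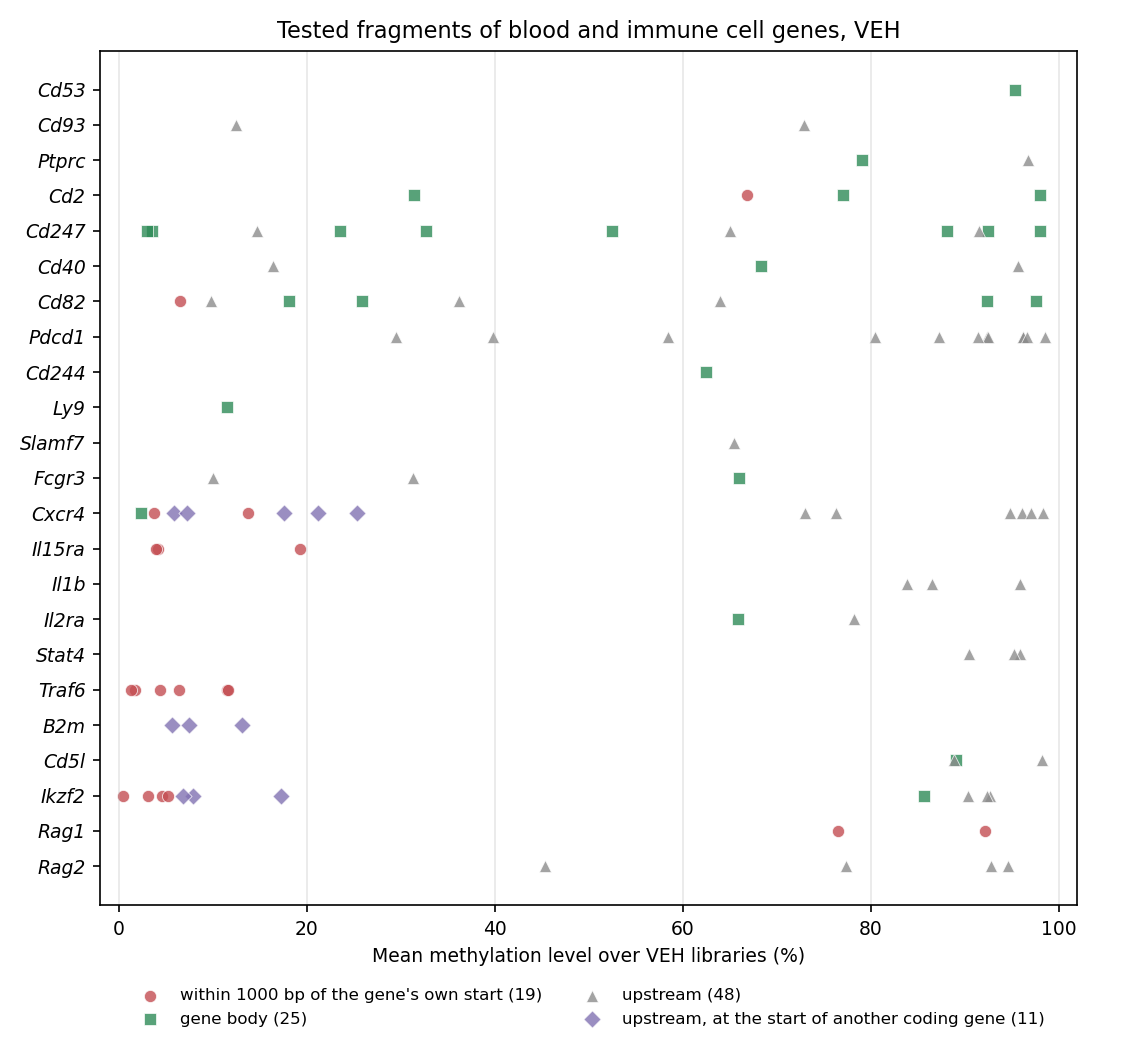
Mean methylation level over the VEH libraries (horizontal axis, percent) of the 103 tested fragments, 1 point per fragment, in rows by gene and ordered by role, with marker shape and colour for the place of the fragment. Points near the gene's own start sit below 20% except in Cd2 and Rag1, and most upstream points away from another gene sit above 80%.

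In VEH the median level of the 103 fragments was 65.4%, against 11% over all tested fragments, and 29 of them (28.2%) lay between 20% and 80%, against 17.2%. Much of the table lies in CpG islands, where 14 of the member fragments lay. Outside islands and their flanks the medians were 66.8% over 89 member fragments and 51.4% over all tested fragments. In gene bodies the median was 66.0% for members and 49.9% for all, and upstream it was 78.2% and 46.7%. Other genes of leukocytes had medians of 70.9% outside islands, 70.0% in gene bodies and 72% upstream. Genes of adipocytes had 55.3% outside islands (24 fragments), 84.0% in gene bodies (14 fragments) and 11.1% upstream (20 fragments). These are descriptions of levels and were not tested.

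Tested fragments near the start of the gene were mostly unmethylated, but they came from only 7 of the 36 members. Traf6 held 6 of them, Ikzf2 4 and Il15ra 3. The median VEH level of the 19 fragments was 5.18%, against 4.09% over all 6772 tested fragments near a start, and 16 of the 19 (84.2%) had a mean VEH level under 20%, against 95.6%. All 10 that lay in an island core, in Ikzf2 and Traf6, were under 20%, against 98.2% of all. Of the 9 outside islands 6 (66.7%) were, against 88.5%. The 3 fragments above 20% belonged to Rag1 and Cd2.

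Ikzf2, which encodes the lymphoid transcription factor Helios, had 4 tested fragments upstream of its start. At 5 bp upstream the VEH libraries ranged from 3.33% to 5.74% with a median of 5.01%, and the DDT libraries from 0.917% to 6.12% with a median of 3.77%. At 70 bp upstream they ranged from 1.44% to 5.93% around 3.07% in VEH and from 0% to 6.38% around 2.35% in DDT. The groups overlapped at both. The fragment 370 bp upstream was the least methylated of all 103, at 0.450% ± 0.547 in VEH and 0.519% ± 0.786 in DDT (SD, n = 12 each). A further fragment 188 bp upstream, not tested, had 1 methylated call of 168 in VEH (0.595%, 95% Wilson interval 0.105% to 3.29%) and 0 of 165 in DDT. Wilson intervals here cover counting error only, since calls of 1 read or 1 PCR product are not independent.

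Traf6, the adaptor that carries signals from Toll-like and interleukin 1 receptors, had 6 tested fragments within 336 bp of its start, at 1.27% to 11.6% in VEH. The fragment over the start (chr2:101678390-101678471) had the largest SD over VEH libraries of all member fragments. In VEH it was 0% in 6 libraries and reached 54.3% in VEH 1, with a mean of 11.5% ± 17.2 over 11 libraries, on 11 to 89 calls per library. In DDT it ran from 0% to 44.1% on 18 to 355 calls, the highest being DDT 4. The neighbouring fragment 43 bp into the gene (chr2:101678472-101678508), with 565 to 4182 calls per library, had the smallest SD in VEH, at 1.77% ± 0.190 (SD, n = 12) in VEH with a range of 1.43% to 2.05%. DDT 4 had 11.5% there, and the other DDT libraries lay between 0.936% and 2.35%.

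Il15ra, the high-affinity receptor chain for interleukin 15, had 3 tested fragments near its start, of which those at 277 and 576 bp are exonic and that at 903 bp intronic. At 277 bp into the gene the VEH libraries ran from 0% to 20.3% with a median of 2.58%, and the DDT libraries from 0% to 8.77% with a median of 2.20%. At 576 bp they ran from 4.17% to 38.5% with a median of 20.5% in VEH and from 4.55% to 26.9% with a median of 16.2% in DDT. At 903 bp the mean VEH level was 3.97% ± 1.11 (SD, n = 12) with a median of 3.56%. In DDT the mean there was 6.74% ± 8.27 (SD, n = 12) with a median of 4.625%, the highest being DDT 4 at 32.4%.

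Cxcr4, the receptor for the chemokine CXCL12 that retains blood precursors in the marrow, was unmethylated over its start. The fragment 49 bp upstream ran from 0% to 12.5% with a median of 2.44% in VEH and from 0% to 15.8% with a median of 4.17% in DDT, at 16 to 135 calls per library. The next one, over the start itself, was too thinly covered for the test and had 2 methylated calls of 195 in VEH (1.03%, 95% Wilson interval 0.282% to 3.66%) and 10 of 278 in DDT (3.60%, 1.97% to 6.49%). At 931 bp into the gene, in the intron, the level was 13.7% ± 7.28 in VEH (SD, n = 12) and 12.6% ± 5.61 in DDT (SD, n = 11).

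Cd82, a tetraspanin of lymphocytes and many other cells, had 1 tested fragment near its start, 868 bp into the gene. The VEH libraries ran there from 1.67% to 10% around a median of 6.98%, and DDT libraries from 0.219% to 8.66% around 5.02%. The lowest value was that of DDT 4.

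Rag1, a subunit of the recombinase that assembles antigen receptor genes in lymphocyte precursors, was methylated just inside its start. At 475 bp the VEH libraries ran from 82.4% to 100% with a median of 90.2%, and the DDT libraries from 59.2% to 100% with a median of 88.2%, the lowest being DDT 12. At 671 bp they ran from 57.9% to 88.5% with a median of 78.3% in VEH and from 50% to 100% with a median of 71.1% in DDT. These levels rest on 11 to 113 calls, in 10 VEH libraries and fewer DDT libraries, and both fragments also lie in an intron of B230118H07Rik. Cd2, an adhesion receptor of T and natural killer cells, stood between the other genes. Its exonic fragment at 109 bp (chr3:101287799-101287830) was narrow in VEH, from 64.4% to 70.1% with a median of 66.7%, and ran from 58.2% to 70.7% with a median of 65.9% in DDT, on 121 to 1349 calls.

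**Figure D2:**
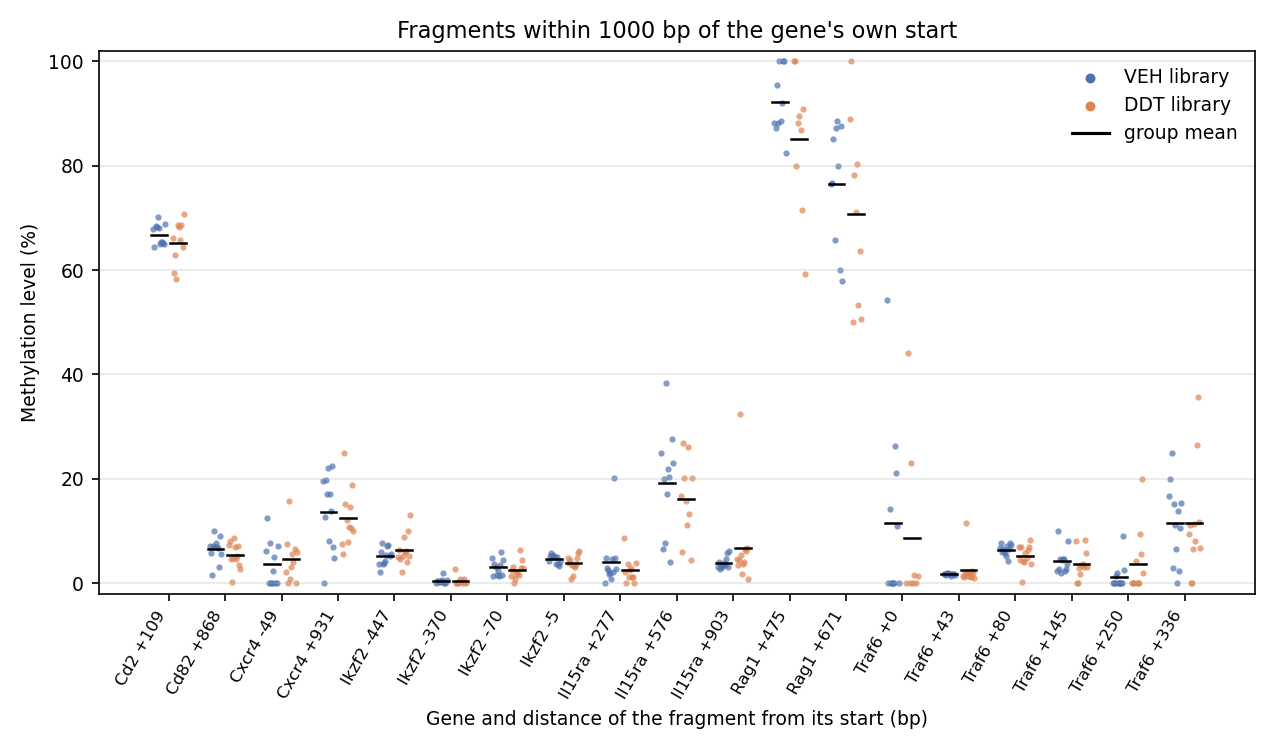
Methylation level (vertical axis, percent) of each library at the 19 tested fragments within 1000 bp of the gene's own start, with VEH and DDT points side by side, a bar at each group mean, and the distance from the start in bp under each gene name. Rag1 and Cd2 lie at 50% or above in every library, and the Traf6 fragment over the start spreads from 0% to 54.3%.

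In all, 31 further fragments within 1000 bp of a member's start had too few calls, and 13 of them had none. Fcgr3, an activating receptor for immunoglobulin G, accounted for 12 of the 31 and for 10 of those without calls. At 74 bp into Cd82 there was 1 methylated call of 52 in VEH (1.92%, 95% Wilson interval 0.340% to 10.1%) and 19 of 92 in DDT (20.7%, 13.6% to 30%), but 18 of the 19 came from DDT 12, with 44 calls. An Il15ra fragment 360 bp in had 10 of 15 calls methylated in VEH (66.7%, 41.7% to 84.8%) and 15 of 27 in DDT (55.6%, 37.3% to 72.4%). A Cd2 fragment 615 bp upstream had 5 of 6 methylated in VEH and 14 of 14 in DDT (100%, 78.5% to 100%). Over the Cd48 start 4 of 5 calls were methylated in VEH and 2 of 3 in DDT. Ly9 had 5 of 6 in VEH and 2 of 3 in DDT at 544 bp in. Cd93 was lower over its start, with 3 of 15 in VEH and 1 of 12 in DDT. Such counts are too small for firm levels. B2m, the light chain of MHC class I, had 1 methylated call of 12 in VEH and 0 of 56 in DDT over its start, the last allowing up to 6.42% by the Wilson interval. The RefSeq promoters (GRCm38, 250 bases before to 50 after the start), found for 28 of the 36 members, held a median of 4 CpGs against 7 over 27025 promoters. The MspI site CCGG, which reads the same on both strands, was in 11 of the 28 (39.3%) against 52.6%. At least 10 CpGs were found in 4 of the 28 (14.3%) against 43.9%, in Cxcr4 with 20, Traf6 with 19, Cd82 with 16 and B2m with 14.

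Within genes, the body was more methylated than the start in 3 of the 4 members that had tested fragments in both places. Each difference was taken within a VEH library, tested by an exact two-sided sign-flip permutation test and adjusted by Benjamini-Hochberg over the 4. Ikzf2 had the largest difference, with 3.39% near the start and 85.6% in an intron 81740 bp from it, a difference of 82.2 percentage points ± 1.32 (SD) and higher in 11 of 11 libraries (exact p = 0.000977, adjusted p = 0.0013). Its body level rests on 1 fragment, whose sequence closely resembles that of the Pdcd1 fragment 282618 bp upstream (80.5% in VEH). Repeated sequences were not annotated, so this fragment may not represent the Ikzf2 body. Cd82 went from 6.46% to 58.3% over 4 body fragments, a difference of 51.8 ± 3.06 in 11 of 11 libraries, with the same p, and was 11.6 with the 1 body fragment covered in all 24 libraries. Its body fragments were themselves graded, from 18.1% at 1020 bp and 25.9% at 9625 bp to 97.6% at 21930 bp and 92.4% at 42665 bp. Cd2 differed by 2.0 percentage points ± 2.60, higher in 9 of 12 libraries (exact p = 0.02, adjusted p = 0.02), and with at least 20 calls the difference was 1.30 (exact p = 0.0801, 10 libraries). Cxcr4 went the other way, from 9.35% to 2.46%, by -6.90 ± 3.18 and lower in 11 of 11 libraries (exact p = 0.000977, -12.5 with at least 20 calls), but its body fragment lay only 1076 bp from the start. The smallest p that 11 libraries allow is 0.000977. In DDT the differences were 82.2, 51.3, 4.65 and -5.96 percentage points in the same order of genes.

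Among the genes of the antigen receptor, Cd247, which encodes the zeta chain of the T cell receptor complex, was covered best, with 11 tested fragments from 12386 bp upstream to 70365 bp into the gene. In VEH 4 of them were above 80%, at 91.5% for 12386 bp upstream, 92.5% at 13145 bp, 88.1% at 47608 bp and 98.0% at 70365 bp. Inside an intron, 5 fragments spanning 971 bp (chr1:165845056-165846026) formed a patch of lower levels that overlaps Gm37856, a GENCODE model that awaits experimental evidence. From 56375 bp on, VEH means rose along the patch from 3.54% ± 1.70 and 3.0% ± 2.75 to 23.5% ± 2.75, 32.6% ± 4.88 and 52.4% ± 11.9 (SD, n = 12 each). In 11 of 12 VEH libraries, and in 6 of the 8 DDT libraries with all 5 levels, both leading fragments lay below the third, the third below the fourth and the fourth below the fifth.

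**Figure D3:**
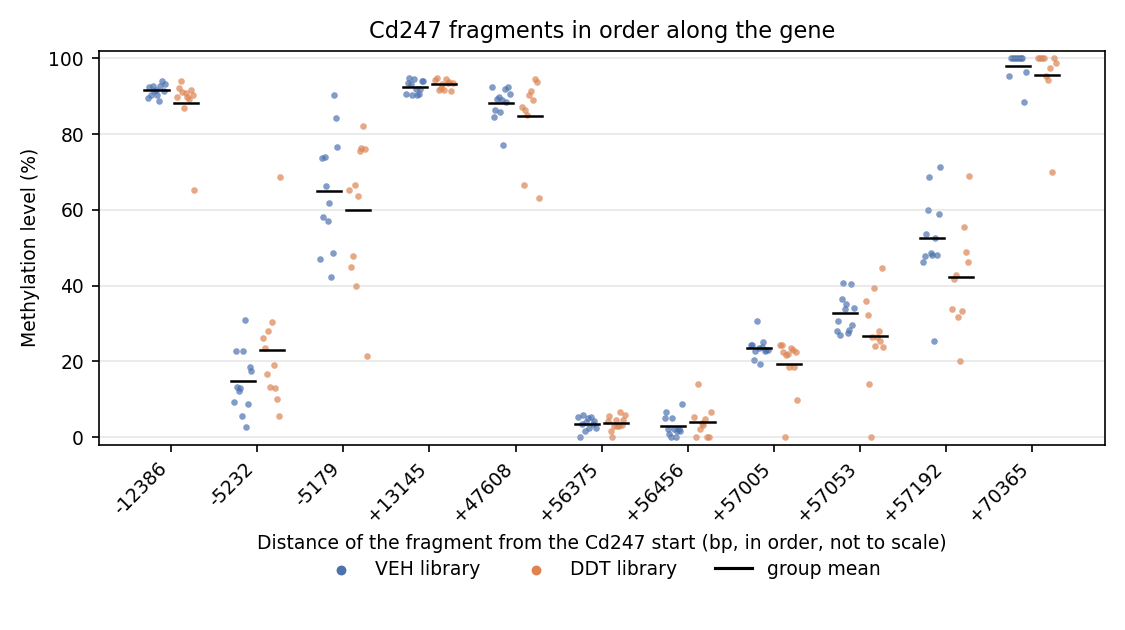
Methylation level (vertical axis, percent) of each library at the 11 tested Cd247 fragments, in order of their distance from the gene start (bp, negative upstream), with VEH and DDT points and a bar at each group mean. Between fragments at 88.1% and 98.0% in VEH, the 5 fragments from 56375 to 57192 bp climb from 3.54% to 52.4%.

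Upstream of Cd247, a pair of adjoining fragments with closely similar sequences differed sharply. Whether reads were placed correctly between them was not tested. At 5232 bp upstream the VEH level was 14.7% ± 8.05, and at 5179 bp (chr1:165783450-165783502) it was 65.0% ± 15.2 (SD, n = 12 each). The latter had the second largest SD of a member fragment in VEH, from 42.3% in VEH 8 to 90.4% in VEH 10 with a median of 64.0%, and ran from 21.4% in DDT 12 to 82.1% in DDT with a median of 65.2%. It has 1 CpG and 14 to 77 calls per library. The third largest SD in VEH was that of the last fragment of the intron patch (chr1:165845873-165846026), from 25.5% in VEH 8 to 71.4% in VEH 12 with a median of 50.6%, and from 20% to 69.0% in DDT with a median of 42.3%.

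Costimulatory and inhibitory receptors were seen mostly from outside. Pdcd1, which encodes the inhibitory receptor PD-1, had 12 fragments 46912 to 282618 bp upstream, at 29.5% to 98.5% in VEH. Here 9 of the 12 lay above 80%. Neighbours could differ, as at 176153, 176202 and 176271 bp upstream, where VEH means were 96.2%, 29.5% and 92.4%. Cd40, a receptor of B cells and macrophages for T cell help, had 95.7% and 16.4% at 5102 and 4629 bp upstream and 68.4% in an intron. Cd2 body fragments lay at 31.4%, 77.0% and 98.0%.

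Those pan-leukocyte and SLAM family genes that had tested fragments had 1 or 2 each. Ptprc, the tyrosine phosphatase CD45 carried by all nucleated blood cells, had an exonic fragment at 79.1% and one 201342 bp upstream at 96.8%. Cd53, a leukocyte tetraspanin, had an intronic fragment at 95.3%. Cd93, a receptor of myeloid and endothelial cells, had an island fragment 17030 bp upstream at 72.9% and one 87152 bp upstream at 12.5%. The island fragment begins with a sequence closely resembling the Pdcd1 fragment 98905 bp upstream (96.25% in VEH). Its end resembles the Stat4 fragment 553283 bp upstream (95.23% in VEH). Repeated sequences were not annotated, and whether these levels are particular to Cd93 or Stat4 was not tested. Cd244, an activating SLAM receptor of natural killer cells, had an intronic fragment at 62.5%. Ly9 had one at 11.5%, which lies in an exon of Ly9 and an intron of Cd244a at the same time, and Slamf7 had one 16502 bp upstream at 65.4%.

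Fcgr3 had 66.0% ± 0.992 (SD, n = 12) in an intron, 31.3% at 6602 bp upstream and 10.1% at 20889 bp upstream. The sequence of the intronic fragment closely resembles that of the Slamf7 fragment (65.4% in VEH). Whether their levels are particular to Fcgr3 or Slamf7 was not tested. Of the cytokine genes, Il1b had 3 fragments of a CpG island 83688 to 83844 bp upstream that were methylated at 83.8% to 95.9%, in contrast to the island cores of the whole table, of which 97.3% were under 20%. Their sequences closely resemble those of the Pdcd1 fragments 208075 to 208277 bp upstream, which lay at 87.3% to 96.7% in VEH. Repeated sequences were not annotated, and whether these levels are particular to Il1b was not tested. Il2ra, the alpha chain of the interleukin 2 receptor, had 65.9% in an intron and 78.2% far upstream, and Stat4, which transmits interleukin 12 signals, had 90.5% to 95.9% at 553283 to 560553 bp upstream. The coding start nearest to these Stat4 fragments was that of Nabp1. Cd5l, a protein secreted by macrophages, had 88.8% to 98.2% in an exon and upstream. Rag2, the partner of Rag1, had 45.3% to 94.7% at 299216 to 1205980 bp upstream. In contrast, the fragments at the starts of Thsd7b, Spag16 and Spg11 that carried the names of Cxcr4, Ikzf2 and B2m lay between 5.66% and 25.3%.

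The DDT and VEH comparison asked whether perinatal DDT changed methylation at these genes. No member fragment passed an ANOVA F test on the levels with Benjamini-Hochberg adjustment over all 20225 fragments, and the smallest adjusted p among members was 0.869. None of the 20225 fragments passed, which is 0% of them. At an unadjusted p under 0.05 there were 4 of 103 member fragments (3.88%), against 845 of all tested fragments (4.18%), and limma found 3. Higher in DDT at that level were 1 of the 103, against 252 of the 20225 (1.25%). The share of member fragments was thus near the background. DDT was higher at 38 of the 103 fragments (36.9%), against 43.1% of all, and the median difference was -0.56 percentage points, against -0.16.

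**Figure D4:**
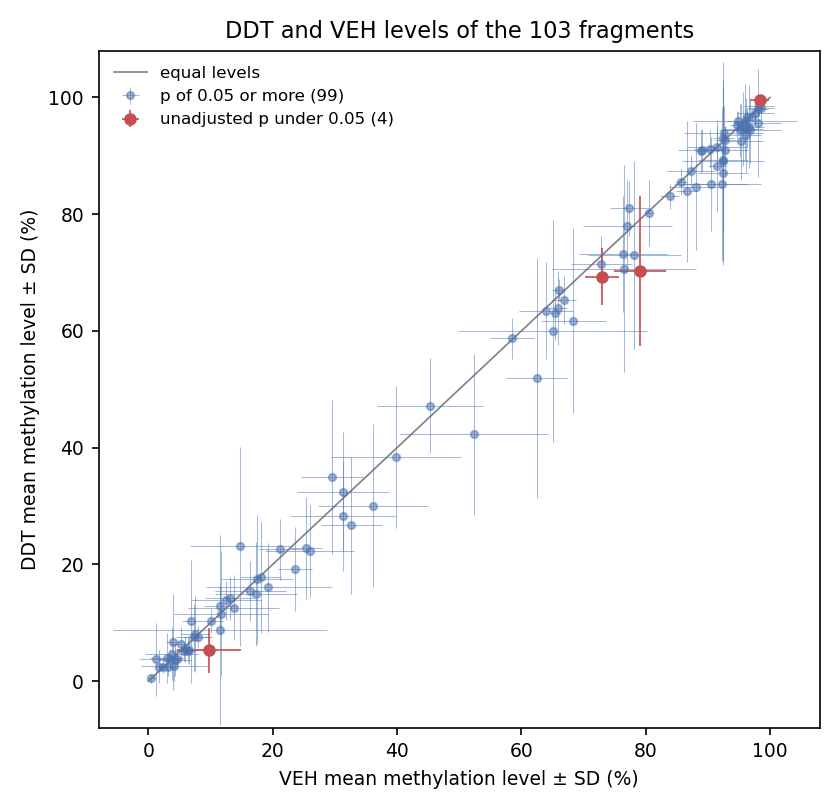
DDT mean level (vertical axis, percent) against VEH mean level (horizontal axis, percent) of the 103 fragments, with bars of 1 SD over libraries, the line of equal levels, and red for the 4 points whose unadjusted p was under 0.05. Points follow the line within their bars over the whole range, and differences run from 10.5 percentage points lower to 8.36 higher in DDT.

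The smallest p belonged to a Cxcr4 fragment 498551 bp upstream (chr1:129090844-129090930). VEH libraries ran from 95.7% to 100% with a median of 98.6% and DDT libraries from 98.4% to 100% with a median of 100%, so that DDT was nearly complete and VEH slightly below. The difference was 1.26 percentage points (95% interval 0.207 to 2.31, ANOVA p = 0.0213, permutation p = 0.0190, adjusted p = 0.869), with 12 to 166 calls per library. A second Cxcr4 fragment, 528727 bp upstream (chr1:129121020-129121067), ran from 68.6% to 77.6% with a median of 73.2% in VEH and from 60% to 77.2% with a median of 68.3% in DDT. It was lower in DDT by 3.71 percentage points (-7.08 to -0.335, ANOVA p = 0.0327, permutation p = 0.0318, adjusted p = 0.869). Its lowest library, DDT 12, had 10 calls there, and without DDT 12 the difference was -2.78 (ANOVA p = 0.0657). Both fragments are closer to the start of Thsd7b than to that of Cxcr4. The sequence of the second closely resembles that of the Pdcd1 fragment 46912 bp upstream (58.5% in VEH). Repeated sequences were not annotated, and whether its level is particular to this place was not tested.

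Cd82 was lower in DDT at a fragment 25965 bp upstream (chr2:93489105-93489172). VEH libraries ran from 4.0% to 19.1% with a median of 7.75%, and DDT libraries from 0.388% in DDT 4 to 11.1% with a median of 4.28%. The difference was -4.48 percentage points (-8.33 to -0.641, ANOVA p = 0.0242, permutation p = 0.0231, adjusted p = 0.869), on 150 to 909 calls, and was -3.55 (ANOVA p = 0.0988) without DDT 3, DDT 4 and DDT 12. The adjoining fragment had 36.2% ± 8.86 in VEH and 30% ± 13.9 in DDT (ANOVA p = 0.212).

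Ptprc had the largest of the 4 differences, in the exonic fragment 55605 bp into the gene (chr1:138120041-138120103). VEH libraries ran from 68.5% to 84.4% with a median of 79.2%, and DDT libraries from 34.8% in DDT 12 to 81.6% with a median of 73.7%, and 10 of 11 DDT libraries lay below the VEH median. The difference was -8.78 percentage points (-16.9 to -0.644, ANOVA p = 0.0357, permutation p = 0.00916, adjusted p = 0.869), on 206 to 718 calls. Without DDT 12 it was -5.22 (ANOVA p = 0.0187). The groups overlapped at all 4 fragments, as they did at every tested fragment of the table.

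**Figure D5:**
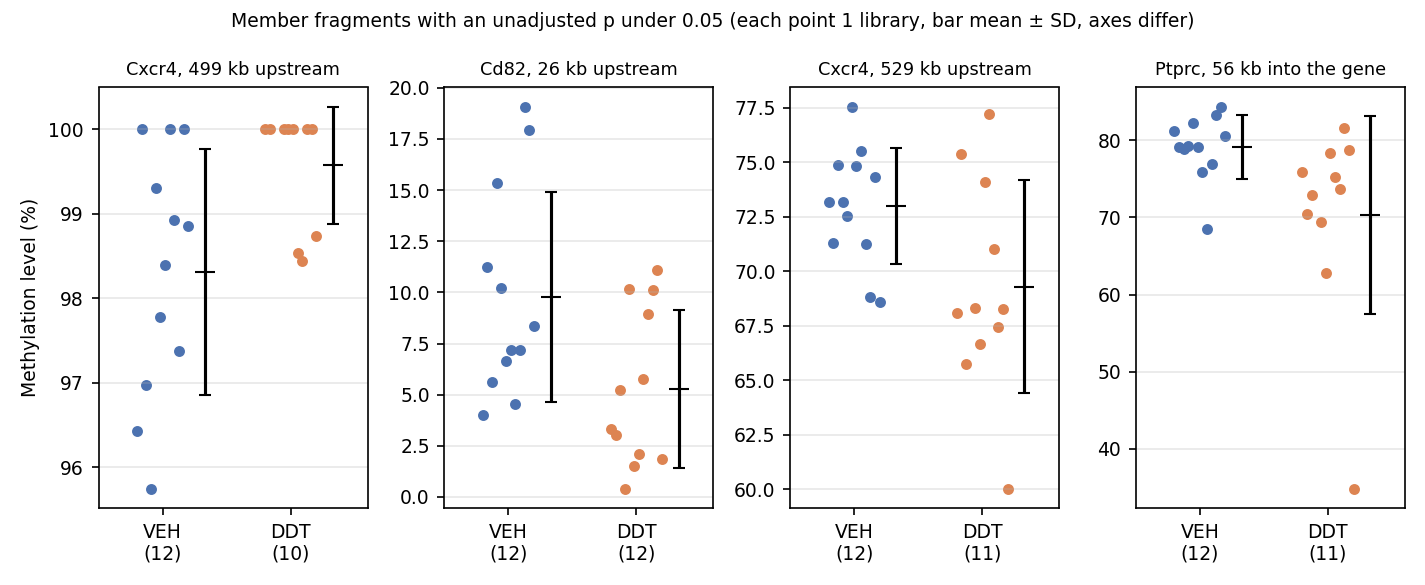
Methylation level (vertical axis, percent, scale differs between panels) of each library at the 4 member fragments with an unadjusted p under 0.05, by group (number of libraries in brackets), with mean ± SD beside the points. VEH and DDT points overlap in every panel, and 1 DDT library lies far below the others at Ptprc.

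Larger differences with wider spread were seen at Cd244, where the means were 62.5% ± 4.92 in VEH and 51.9% ± 20.5 in DDT (difference -10.5 percentage points, ANOVA p = 0.0995), and at the last fragment of the Cd247 patch, with a difference of -10.1 percentage points (-21.6 to 1.28, ANOVA p = 0.0788). Cd244 stood at 0% in DDT 4 and 28.1% in DDT 12 and had no level in DDT 3. Its difference was -5.31 without DDT 4 (ANOVA p = 0.169) and -2.08 without DDT 3, DDT 4 and DDT 12 (ANOVA p = 0.4). The Cd247 difference ran from -13.1 to -7.66 when 1 library was left out, with an unadjusted p under 0.05 in 2 of 24 cases, without VEH 8 (ANOVA p = 0.0206) and without DDT 11 (ANOVA p = 0.0175). At the third Cd247 patch fragment the difference was -4.39 (-9.01 to 0.235, ANOVA p = 0.0617, permutation p = 0.0382), and it was -2.65 without DDT 4 (ANOVA p = 0.0833) and -1.58 without DDT 3, DDT 4 and DDT 12 (ANOVA p = 0.172). At the 19 fragments near a start the smallest p was 0.0895, in Traf6. The 95% interval of the difference lay within 5 percentage points of 0 at 44 of the 103 fragments and within 10 at 80, and at the remaining 23 it reached beyond 10.

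DDT libraries spread more than VEH libraries. The SD over DDT libraries was the larger at 78 of 103 member fragments (75.7%), against 79.2% of all tested fragments, and the median SD was 5.11 in DDT and 3.10 in VEH. Without DDT 3, DDT 4 and DDT 12 it was the larger at 62 (60.2%), against 53.2% of all, with a median SD of 3.34 in DDT.

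Of 88 other genes of leukocytes, 61 had 278 tested fragments, with none called after adjustment and 9 (3.24%) at an unadjusted p under 0.05, 4 of them higher in DDT. The smallest p was that of a fragment in Aim2, a sensor of cytosolic DNA, at 9.43% ± 2.41 in VEH and 14.4% ± 3.74 in DDT (ANOVA p = 0.00125, adjusted p = 0.869). Near a start, 66 of their 69 fragments (95.7%) were under 20% in VEH, with the lowest levels in Rassf5 (0.434%) and Ada (0.858%) and the highest in Il12a (71.7%), Inpp5d (56.6%) and Slamf8 (50.1%). Of 10 genes of adipocytes with tested fragments, 7 had fragments near a start, 24 in all, and every one was under 20% in VEH. The lowest were at Cebpb (0% and 0.812%) and Acadl (0.713%) and the highest at Acvr1c (14.5%), Acadl (12.8%) and Fabp4 (10%). Among the 58 tested fragments of the 10 genes the smallest unadjusted ANOVA p was 0.0569, at Fabp4.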

How the data were processed

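RRBS counts of BAT from 12 DDT and 12 VEH litter pools at PND 12 were used. The authors trimmed 50 bp single-end reads with Scythe and Sickle, aligned them to GRCm38 with Bismark 0.15.0 and Bowtie 2, and deposited, per MspI fragment and library, raw counts of CpG calls, methylated and not methylated, with their gene annotation. Of the fragments, 100% began at an MspI site of GRCm38. Distances were taken from GENCODE M21 gene starts, promoters from RefSeq, and all sequences from GRCm38.

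Levels, the ANOVA F test and Benjamini-Hochberg adjustment were computed on the whole table (Python 3.11.15, SciPy 1.17.1), and only member rows are given. Single fragments were also compared by two-sided permutation (100000 resamples, exact where a group had fewer than 10 levels). The scripts were tested on simulated calls. Alternatives were limma 3.58.1 on log2((methylated + 1) / (not methylated + 1)), minimums of 5 and 20 calls, levels in all 24 libraries, a replicate block, a depth covariate, each library left out, 2000 bp as near a start and pooled calls. Leaving out DDT 3, DDT 4 and DDT 12 together was added after seeing the data. The members and lists were chosen with earlier results of these data known. Described fully were the 2 fragments nearest each start, those with an unadjusted p under 0.05, the 3 smallest p, the 3 largest VEH SDs and the largest and smallest body minus start differences. Beyond that rule, after their values were seen, Cd244, untested start fragments and further Cd247, Cd82, Ikzf2 and Il15ra fragments were given with values. Same-numbered VEH and DDT replicates did not deviate together: the correlation of their deviations exceeded 0.1 in 3 of 12 pairs. The closest pair of libraries differed by a mean chi-square of 1.72 per fragment, with calls taken as independent. Labels do not say how litters were assigned to library batches. DDT 12 carries the library name RRBS48, whereas the others are named RRBS1 to RRBS23, and the labels do not explain the number. A gene that the naming rule for the other lists would add is not reported here.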

Additional observations from a re-analysis of the deposited data

How the results depend on the processing

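The count of 0 member fragments called after adjustment held in every alternative, leaving out any library included. The 4 fragments at an unadjusted p under 0.05 became 1 among fragments with a level in all 24 libraries, where fewer were tested, and 2 with the replicate block. The 1 of them higher in DDT became 2 with at least 5 calls, and 0 in all 24 libraries, with limma and with the replicate block; for the last 2 the cause was not tested. Leaving out 1 library gave 3 to 7 of the former, 7 without DDT 11, and 1 to 2 of the latter, 2 without VEH 3, VEH 10, DDT 6 or DDT 7. The 16 start fragments under 20% became 7 of 7 in all 24 libraries and lay between 15 and 16 without 1 VEH library. The median start level lay between 4.95% and 5.45% and 3 members had the higher body level whichever VEH library was left out. No paired design was stated, so the replicate block shares only a number. Without DDT 3, DDT 4 and DDT 12, 3 fragments had an unadjusted p under 0.05, 1 of them higher in DDT. Counts at an unadjusted p under the alternatives, limma included, are given without the shares over all tested fragments. They therefore do not show whether the members moved apart from the rest of the table.

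Of the 4 single differences at an unadjusted p under 0.05, Cd82 no longer had one without the 3 libraries, nor had both Cxcr4 fragments with limma, the one 498551 bp upstream also with the replicate block, the one 528727 bp upstream also with at least 20 calls and without the 3 libraries (ANOVA p = 0.127), and Ptprc with the replicate block (ANOVA p = 0.0621) and the depth covariate (p = 0.0505). It was also no longer under 0.05 on leaving out VEH 5, VEH 10, VEH 11 or DDT 6 at Ptprc and VEH 6, VEH 8, DDT 3, DDT 6, DDT 10 or DDT 12 at the latter Cxcr4 fragment, with p from 0.0506 to 0.0657. Differences with a larger p changed sign at Cd247 5179 bp upstream (1.44 with at least 20 calls, 0.567 without DDT 3, DDT 4 and DDT 12), Cxcr4 49 bp upstream (-0.018 with limma, on the log2 scale, and -0.136 without DDT 5, in a range of -0.136 to 1.85 without 1 library), Rag1 671 bp in (0.018 with limma, log2), Traf6 over the start (1.51 without VEH 1, range -3.92 to 1.51) and Traf6 43 bp in (-0.110 without DDT 4, range -0.110 to 0.851, and -0.0720 without the 3 libraries). Leaving out DDT 1, DDT 2 or DDT 8 brought the Cd247 fragment 57005 bp in under 0.05 (p from 0.0457 to 0.0498), and leaving out DDT 12 did so for Ikzf2 5 bp upstream (p = 0.0493).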
